A study of Mus musculus with 3 samples.

Results

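The genes described here are the 7 TRAF genes (Traf1, Traf2, Traf3, Traf4, Traf5, Traf6 and Traf7) and 3 inhibitor of apoptosis genes, Birc2, Birc3 and Xiap, 10 of the 55450 annotated genes measured and all among the 21951 protein-coding ones. They were chosen by name, as the adaptors and ubiquitin ligases of TNF receptor and Toll-like receptor signalling, and not by their values. Earlier results of these data were, however, known when they were chosen. The RNA came from the chromatin fraction of mouse macrophages, primary cells grown from the bone marrow of strain C57BL/6J and given lipid A at 100 ng/ml for 20 min. Lipid A, the membrane anchor of bacterial lipopolysaccharide, is sensed by TLR4, and chromatin-bound RNA is rich in nascent transcripts and those awaiting release. The study has 1 group of 3 libraries, biological replicates 1, 2 and 3, made from 1 µg, 250 ng and 500 ng of RNA, and no untreated sample was analysed here, so levels are described and no induction. Each sample is labelled as its own biosample under a single donor entry, neither age nor sex is stated, and whether separate animals were used is not said, so the spread between libraries may be technical.

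TRAF proteins are adaptors that bind the inner tails of TNF receptors or the kinases below Toll-like receptors, and most carry a RING domain of the kind found in ubiquitin ligases. Traf2 brings the ligases encoded by Birc2 and Birc3 to TNF receptor complexes, where ubiquitin chains gather the kinases that activate NF-kB, and Traf6 does a related task below TLR4. Traf1 and Birc3 are themselves known NF-kB target genes in mouse and human cells, while together Traf2, Traf3, Birc2 and Birc3 keep the NF-kB-inducing kinase low in resting cells.

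The libraries held 16317439, 16245280 and 12439931 expected counts in replicates 1, 2 and 3, of which the 10 genes took 9956, 6304 and 6360, or 0.0610%, 0.0388% and 0.0511%. A gene at 0 could still have had as many as 3 counts, that is 0.184, 0.185 and 0.241 counts per 1000000, and this floor and the intervals below cover counting error only. Protein-coding genes held 15.8%, 18.0% and 24.7% of all TPM (transcript abundance per 1000000, counts scaled for length and for the library's total) in replicates 1, 2 and 3. A gene's TPM therefore moved between libraries with that share, and values rescaled to sum to 1000000 over coding genes are given as coding-rescaled TPM where libraries are compared. All 10 macrophage markers reached 1 TPM in every library, with summed levels of 642, 608 and 1060 TPM. None of 22 markers of 8 other cell types did so, their summed levels were 1.96, 2.16 and 3.04 TPM, and the T cell genes Cd3e and Cd3g and the erythroid gene Hbb-bt were listed at 0 in every library. In a second set of transcript tables made from the same libraries by another method, 5 of the 22 reached 1 TPM in every library. The highest means there were 5.34 ± 2.07 TPM for the endothelial gene Pecam1 and 2.83 ± 0.804 TPM for the T cell gene Cd8a (SD, n = 3). The dendritic cell genes Zbtb46 and Siglech averaged 2.44 and 1.54 TPM, and the fibroblast gene Col1a1 averaged 1.57 TPM. Cd3g averaged 1.15 ± 0.684 TPM (SD, n = 3) in that set and Cd3e 0.0892 TPM, while Hbb-bt stayed at 0.

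All 10 genes reached 1 TPM in every library, against 40.7% of protein-coding genes. In bulk RNA, a difference in the number of cells that express a gene and in the RNA per cell cannot be told apart. Their median level was 9.28, 7.35 and 13.9 TPM in replicates 1, 2 and 3 (mean 10.2 ± 3.36, SD, n = 3), and the median over all coding genes was 0.310, 0.350 and 0.600 TPM. Over the coding genes that likewise reached 1 TPM in every library the median was 6.96, 8.15 and 11.9 TPM, close to that of the 10 genes and above it in replicate 2. The members lay over a wide range, and Birc3 and Traf7 stood at the top of it in all 3 libraries. At a stricter limit of 5 TPM in every library 6 of the 10 genes remained, against 24.0% of coding genes, and the 4 that dropped out were Traf1, Traf2, Traf3 and Traf4.

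**Figure D1:**
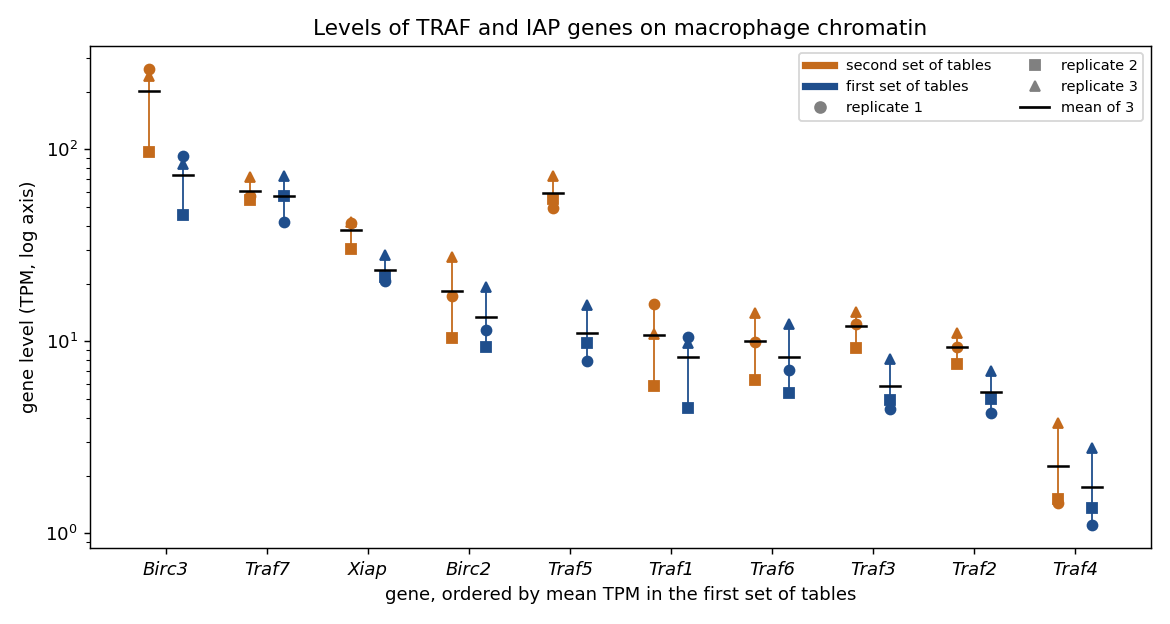
Gene levels in TPM (log axis) of the 10 genes, ordered by mean, with 1 point per library and a black bar for the mean of 3. Birc3 averaged 201 TPM in the second set of tables (orange) and 73.8 TPM in the first (blue), Traf5 showed the widest gap between the sets, and Traf4 was lowest in both.

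Birc3, the inducible member of the cIAP pair, had 92.0, 45.7 and 83.7 TPM in replicates 1, 2 and 3 (73.8 ± 24.7, SD, n = 3), from 3093, 1045 and 1173 expected counts. It was above 96.2% to 98.9% of coding genes in the 3 libraries. Birc2, the other cIAP gene, had 11.5, 9.30 and 19.2 TPM (13.3 ± 5.19), from 849, 517 and 677 expected counts. The pair lies head to tail on the minus strand of chromosome 9 in GRCm38 (mm10), Birc3 at chr9:7848699-7873186 and Birc2 at chr9:7818227-7837064, with 11.6 kb between them. Birc3 was 8.02, 4.92 and 4.36 times Birc2 in TPM within replicates 1, 2 and 3, a mean log2 ratio of 2.48 ± 0.47 (SD, n = 3), so the direction was the same in all 3 libraries. In expected counts, which are not scaled for length, the mean log2 ratio was 1.22 ± 0.57, and in the second set of tables it was 3.43 ± 0.44 in TPM.

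Much of the height of Birc3 in TPM lay in short noncoding isoforms. Birc3-205 and Birc3-206 are annotated processed transcripts (spliced RNAs with no reading frame) of 355 and 360 nt, each of 2 exons, within the first 4.54 and 6.99 kb of a gene of 24.5 kb. The second exon of each lies within the first intron of Birc3-201, so unspliced RNA could also be counted there. Its part was not tested. Birc3-206 had 26.8, 13.2 and 28.0 TPM in replicates 1, 2 and 3 and Birc3-205 had 21.2, 10.5 and 21.3 TPM, and the 2 held 30.5% and 23.8% of the TPM of the gene. Of its expected counts they held 3.90% and 2.95%, with 129, 35 and 49 counts for Birc3-206 and 99, 27 and 36 for Birc3-205. Neither shares a stretch of 31 bases with a transcript of another gene, and 1.82% of those of Birc3-206 and 14.5% of those of Birc3-205 recur in other Birc3 isoforms. The coding isoforms Birc3-202 and Birc3-201 held 59.0% and 31.7% of the counts. Birc3-202 ends 17.4 kb into the gene with an exon that runs past the splice site used by Birc3-201, and it had 1896, 641 and 638 expected counts against 908, 306 and 429 for Birc3-201. Stretches of 31 bases that recur in other genes made up 16.6% of those in Birc3-201, most of them in Gm7019. In Birc3-202 they made up 12.7%, recurring across 1575 genes, so part of the count of both isoforms is uncertain.

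Counted by coding isoforms alone, Birc3 had 38.5, 18.1 and 30.7 TPM (29.1 ± 10.3, SD, n = 3) and Birc2 had 9.08, 7.45 and 14.3 TPM (10.3 ± 3.57). Birc3 stayed above Birc2 in each library on this measure. That order rests on Birc3-202, whose last exon runs into an intron of Birc3-201. By Birc3-201 alone, at 13.2, 5.95 and 12.8 TPM, Birc3 was above the Birc2 values in replicate 1 and below them in replicates 2 and 3. The main isoform of Birc2 was the coding Birc2-204, with 57.2% of its TPM, followed by coding Birc2-202 with 20.8% ± 12.8 and the retained intron Birc2-203, at the 5′ end of the gene, with 20.7% ± 2.21 (SD, n = 3). The split between Birc2-204 and Birc2-202 varied between libraries, since Birc2-202 had 216, 184 and 54 expected counts in replicates 1, 2 and 3. All of the 31-base stretches of Birc2-202 also occur in other Birc2 isoforms, and each of its exons lies within an exon of Birc2-204, so the split between the 2 is uncertain.

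Traf1, which lacks a RING domain and pairs with Traf2, had 10.6, 4.51 and 9.79 TPM in replicates 1, 2 and 3 (8.31 ± 3.32, SD, n = 3), from 463, 138 and 213 expected counts. Traf2, the adaptor that recruits Birc2 and Birc3, had 4.25, 4.99 and 7.04 TPM (5.43 ± 1.45), from 394, 332 and 297 expected counts. Traf1 was above Traf2 in replicates 1 and 3 and below it in replicate 2, and the log2 ratio of 0.55 ± 0.74 did not exceed its spread over libraries. In expected counts the ratio was -0.50 ± 0.75, of the opposite sign and again within its spread. Both genes are on the minus strand of chromosome 2, Traf1 at chr2:34941750-34961772 and Traf2 at chr2:25517982-25546940.

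The retained intron share of Traf1 depended on the tables, at 44.9% ± 12.2 of counts in the second set and 63.4% ± 9.67 in the first (SD, n = 3). Traf1-208, a single exon of 1980 nt that lies 3.61 to 5.59 kb from the gene start and takes in an intron of the coding isoform Traf1-207, had 233, 57 and 80 expected counts in replicates 1, 2 and 3. In the first set it held 43.1% of the counts of the gene and 37.4% of its TPM, and Traf1-206, a second retained intron at the 5′ end, held 20.3% of the counts. In the second set the coding Traf1-207 led on average with 42.4% of the counts and Traf1-208 held 26.9%, since Traf1-207 had a mean of 172 counts there and 27.5 in the first set. In replicate 1 of that set Traf1-208 was ahead, with 242 estimated counts against 179. Of the 31-base stretches of Traf1-207, 0.768% recur in other genes, 228 in all. In the first set, coding isoforms of Traf1 had 3.61, 2.06 and 2.43 TPM (2.70 ± 0.810, SD, n = 3), and coding isoforms of Traf2 had 2.36, 3.12 and 4.43 TPM (3.30 ± 1.05). Traf1 was thus above Traf2 in replicate 1 and below it in the other 2 libraries. In the second set Traf1 was above Traf2 in all 3, with 7.87, 3.22 and 5.15 TPM against 2.81, 2.31 and 4.06 TPM, so the order by coding isoforms is not settled. In Traf2, the retained intron Traf2-203 held 48.6% ± 3.32 of the counts and the coding Traf2-201 held 46.2%. The second set of tables gave Traf2-203 a mean of 633 estimated counts, against 167 in the first, and 4.38% of its 31-base stretches recur in other genes.

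Between libraries, Traf1 and Birc3 varied more than the other 8 genes in coding-rescaled TPM. Coding-rescaled TPM of Traf1 was 25.0 in replicate 2, 39.7 in replicate 3 and 67.4 in replicate 1, and that of Birc3 was 254, 339 and 583 in the same libraries. Replicate 1 over replicate 2 was 2.69-fold for Traf1 and 2.30-fold for Birc3, while 2.66% of the 8938 coding genes at 1 TPM or more in every library were at least 2-fold higher in that direction. The ratio for the other 8 ran between 0.838 for Traf7 and 1.50 for Traf6. Traf1 and Birc3 were the 2 members that were lowest in replicate 2 and highest in replicate 1, as were 13.2% of those coding genes. Their ratios above are therefore also their full ranges, and not a further result. The other 8 ranged less than 2-fold, while 7.95% of those coding genes ranged at least 2-fold. The second set of tables gave 2.25-fold for Traf1 and 2.27-fold for Birc3, with 2.00% of coding genes at 2-fold or more there. Among the 10 macrophage markers 2 showed the same order at 2-fold or more, Spi1 at 2.37-fold and Lyz2 at 2.04-fold higher in replicate 1 than in replicate 2. Replicates 2, 3 and 1 were made from 250 ng, 500 ng and 1 µg of RNA, with 1 library per amount, so an order by amount and differences between individual libraries cannot be told apart.

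**Figure D2:**
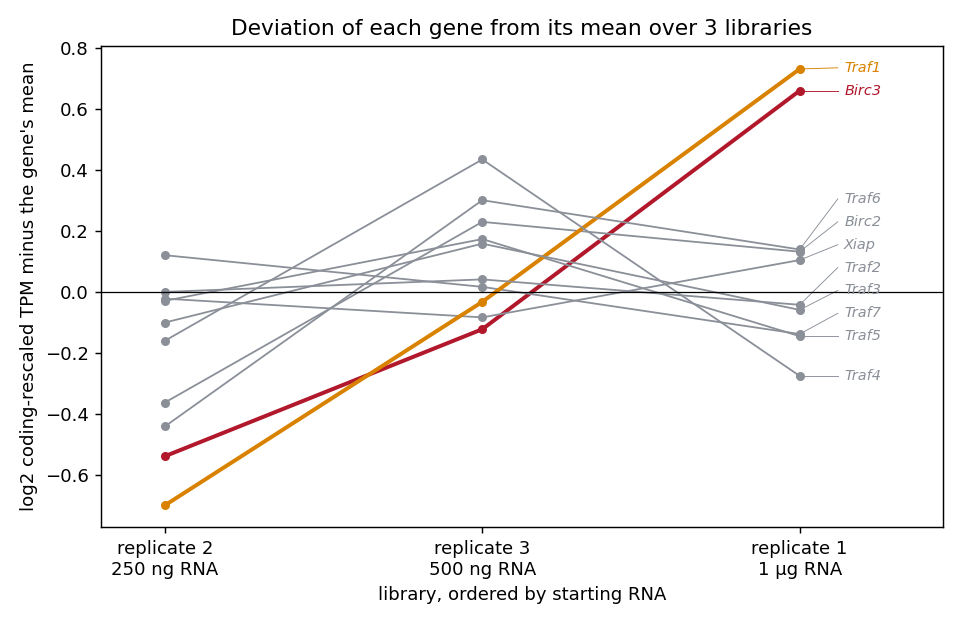
Log2 coding-rescaled TPM of each gene minus its own mean over the 3 libraries, with libraries along the horizontal axis from 250 ng to 1 µg of starting RNA. Traf1 (orange) and Birc3 (red) run from the bottom in replicate 2 to the top in replicate 1, 2.69-fold and 2.30-fold apart, while the highest library of each of the 8 other genes (grey) is at most 1.67-fold above its lowest.

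The promoters of the pair that varied together, Birc3 and Traf1, are shown with those of 2 members that did not, Birc2 and Traf3. Birc2 and Traf3 hold motif matches, given below, and do not stand for the other members. All 4 promoters run from 250 bases before to 50 after the annotated start, each read 5′ to 3′ on the strand of its gene. They come from RefSeq on build GRCm38.p6, which matched all 10 genes with 13 windows, and capitals mark a match to 1 of 4 motifs searched on both strands. The motifs were the NF-kB consensus, found in 4.51% of 32851 promoters of all genes, the AP-1 motif TGANTCA in 7.81%, the cyclic AMP response element TGACGTCA in 1.79% and TATAAA in 13.6%. The windows are chr9:7873121-7873420 for Birc3, chr2:34961723-34962022 for Traf1, chr9:7837008-7837307 for the upstream one of the 2 Birc2 starts, and chr12:111166120-111166419 for Traf3.
Birc3: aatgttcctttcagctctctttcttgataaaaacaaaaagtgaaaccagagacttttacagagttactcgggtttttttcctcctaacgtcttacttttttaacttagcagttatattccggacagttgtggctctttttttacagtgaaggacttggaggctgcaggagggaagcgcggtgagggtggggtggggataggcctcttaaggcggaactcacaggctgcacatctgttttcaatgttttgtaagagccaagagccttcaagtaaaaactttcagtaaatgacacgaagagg
Traf1: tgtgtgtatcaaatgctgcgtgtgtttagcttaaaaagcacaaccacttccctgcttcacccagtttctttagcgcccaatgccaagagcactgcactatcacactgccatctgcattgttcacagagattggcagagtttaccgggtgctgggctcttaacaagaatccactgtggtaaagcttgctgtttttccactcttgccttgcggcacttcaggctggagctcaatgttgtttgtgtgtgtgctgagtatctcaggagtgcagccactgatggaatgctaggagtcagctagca
Birc2: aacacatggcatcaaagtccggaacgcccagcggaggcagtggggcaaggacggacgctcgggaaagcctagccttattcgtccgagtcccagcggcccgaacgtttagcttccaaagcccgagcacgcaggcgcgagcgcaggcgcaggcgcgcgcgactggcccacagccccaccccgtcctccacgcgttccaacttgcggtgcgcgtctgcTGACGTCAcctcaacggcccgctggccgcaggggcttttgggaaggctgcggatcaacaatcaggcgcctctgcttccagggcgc
Traf3: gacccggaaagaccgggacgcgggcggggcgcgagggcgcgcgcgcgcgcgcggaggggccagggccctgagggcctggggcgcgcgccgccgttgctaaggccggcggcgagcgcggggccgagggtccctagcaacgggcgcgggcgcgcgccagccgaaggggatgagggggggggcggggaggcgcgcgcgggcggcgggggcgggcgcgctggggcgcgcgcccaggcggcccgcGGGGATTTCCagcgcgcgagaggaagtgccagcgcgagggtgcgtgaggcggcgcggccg
Traf3 held the only NF-kB consensus match among the 13 windows, starting 10 bases before the start, and Birc2 held the only response element match, starting 35 bases before it. No AP-1 match fell in any of the 13, and the TATAAA match was in 1 window of Xiap, at its far upstream edge. The windows of Traf2, Traf4, Traf5, Traf6 and Traf7 had no match to any of the 4 motifs. The Birc3 and Traf1 windows had none either. Their content of G and C was 43.0% and 48.7%, within the range of the 13 windows, from 37.7% in Xiap to 84.0% in Traf3, and the median over all promoters was 52.7%. These are descriptions of the letters in a short window. In Birc3, Traf1 and Traf3, every isoform with at least 10% of its gene's TPM in either set starts downstream of the window shown. The nearest such starts are chr9:7873024, chr2:34961597 and chr12:111166463, so the letters at those starts were not searched. The Birc2 window does cover the start of its main isoform, Birc2-204.

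Traf6, the ligase that the MyD88 and IRAK proteins engage below TLR4, had 7.06, 5.39 and 12.3 TPM in replicates 1, 2 and 3 (8.26 ± 3.62, SD, n = 3), from 620, 399 and 503 expected counts. It lies at chr2:101678429-101701669 on the plus strand. The coding Traf6-201 held 78.4% of its counts but 42.2% of its TPM, and the rest went to the processed transcripts Traf6-202 and Traf6-203, with 31.6% and 26.2% of its TPM. Traf3, which couples TLR4 to the kinase Tbk1 and to interferon induction, had 4.47, 4.95 and 8.11 TPM (5.84 ± 1.98), from 621, 497 and 454 expected counts. It is the longest of the 10 genes, at chr12:111166370-111267153 on the plus strand, and the coding Traf3-201 held 57.4% of its counts in the second set and 86.8% in the first. Traf3 overlaps 4930595D18Rik on the other strand over 18122 bp, a gene listed at 0 in the first tables and at 120, 77 and 88 estimated counts in the second. Whether the counting used strand is not stated, so reads over that stretch cannot be assigned with certainty.

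Traf5, a close relative of Traf2 that acts at many of the same receptors, was the gene whose level depended most on the tables used. It had 49.8, 55.3 and 72.4 TPM in the second set of tables and 7.93, 9.80 and 15.4 TPM in the first, a 5.35-fold difference in the mean, or 8.66-fold in counts. Across the other 9 genes the second set was 1.07 to 2.72 times the first in TPM. The gap lay in Traf5-203, a retained intron of 2084 nt located 33.4 to 37.2 kb into a gene of 95.4 kb (chr1:191997205-192092559, minus strand). Traf5-203 had 2221, 2659 and 2100 estimated counts in the second set and 171, 129 and 145 expected counts in the first, 15.7-fold in the mean. Of its 31-base stretches 14.8% recur in transcripts of other genes, 105 genes in all, so its reads have many possible sources. The part of this sharing in the difference was not tested. The full-length coding isoform Traf5-201 had 73, 90 and 61 expected counts, and coding isoforms of Traf5 together had 8.22 ± 2.11 TPM in the second set and 4.52 ± 1.83 TPM in the first (SD, n = 3). The stretch of Traf5-204, a retained intron at the 3′ end of the gene, overlaps the microRNA gene Mir3473c by 65 bp, and Mir3473c was listed at 0 in both sets.

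**Figure D3:**
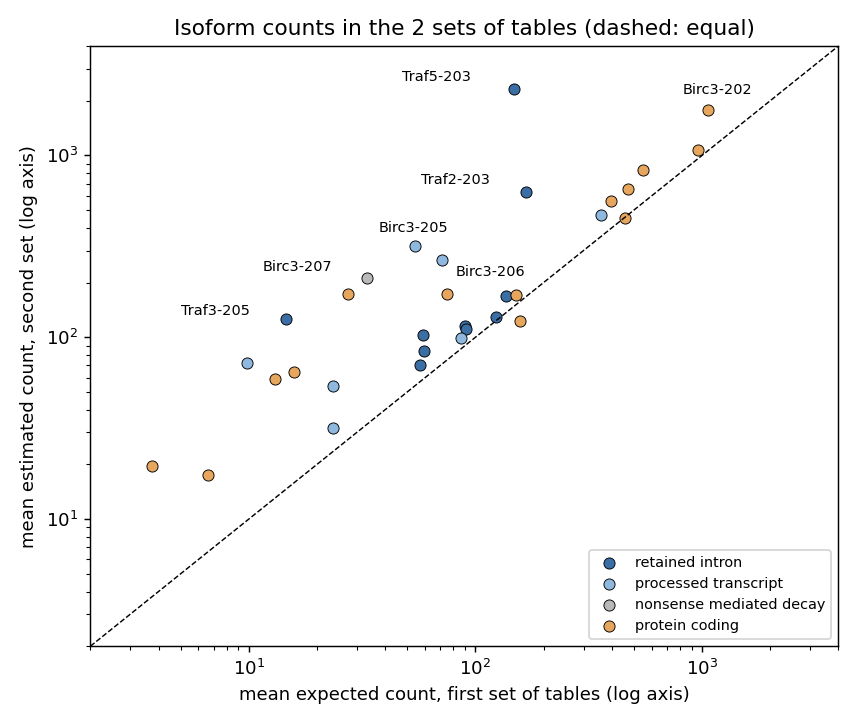
Mean estimated count in the second set of tables against mean expected count in the first (log axes, mean of 3 libraries) for each isoform of the 10 genes that held at least 10% of its gene's TPM in either set and at least 3 counts in the first. The retained intron Traf5-203 lies farthest above the dashed line of equality, at 2327 against 148 counts.

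Traf4, which is known more for roles in epithelial and embryonic tissue than in TNF receptor signalling, was the lowest of the 10 genes. It had 1.10, 1.36 and 2.80 TPM in replicates 1, 2 and 3 (1.75 ± 0.916, SD, n = 3), from 89, 75 and 111 expected counts, with exact 95% Poisson intervals of 71.5 to 110, 59.0 to 94.0 and 91.3 to 134. The gene lies at chr11:78158499-78165589 on the minus strand. Its coding isoform Traf4-201 was listed at 0 in all 3 libraries and in both sets of tables, which leaves room for 3 counts, here 0.0572, 0.0774 and 0.118 TPM. The counts went to Traf4-203, a retained intron of 3223 nt, with 88, 72 and 110 expected counts or 97.7% of the gene. Of the 31-base stretches of Traf4-201, 98.6% also occur in other Traf4 isoforms, against 63.2% for Traf4-203, so most reads from a Traf4-201 molecule could have come from another isoform.

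Traf7, which carries WD40 repeats in place of the TRAF domain of the other 6, was the TRAF gene with the highest mean TPM in the first set. In the second set it did not differ from Traf5 beyond the spread over libraries (log2 ratio 0.05 ± 0.12, SD, n = 3). It had 41.9, 57.0 and 72.9 TPM in replicates 1, 2 and 3 (57.3 ± 15.5, SD, n = 3), from 1375, 1401 and 1040 expected counts, and was above 96.5% to 97.2% of coding genes. The gene, at chr17:24508562-24527938 on the minus strand, has 26 annotated isoforms, and the 2 with the most TPM are retained introns. By counts, the coding Traf7-215 and the retained intron Traf7-219 were level in the first set, with 14.7% ± 4.87 and 14.2% ± 0.836 (SD, n = 3). In the second set Traf7-219 held 15.2% of the counts and Traf7-215 held 7.45%. Traf7-214, of 500 nt, had 11.3, 16.5 and 23.9 TPM and held 29.6% of the TPM of the gene but 7.21% of its counts, and Traf7-218, of 861 nt, held 18.9% and 10.7%. By coding isoforms alone Traf7 had 8.32, 12.1 and 13.2 TPM (11.2 ± 2.57, SD, n = 3), well below its gene level in each library. Xiap, the inhibitor that binds caspases directly, had 20.6, 21.6 and 28.3 TPM (23.5 ± 4.19), from 2120, 1607 and 1614 expected counts. Its coefficient of variation over libraries was 17.8% in TPM and 6.62% in coding-rescaled TPM, a scale on which Traf2 was lower at 2.91%. Xiap lies at chrX:42059679-42109656 on the plus strand, and its processed transcript Xiap-206, in the first 13.0 kb, had 10.1, 9.56 and 13.8 TPM or 47.3% of the TPM of the gene and 20.0% of its counts. The coding isoform Xiap-201 held 53.6% of the counts.

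**Figure D4:**
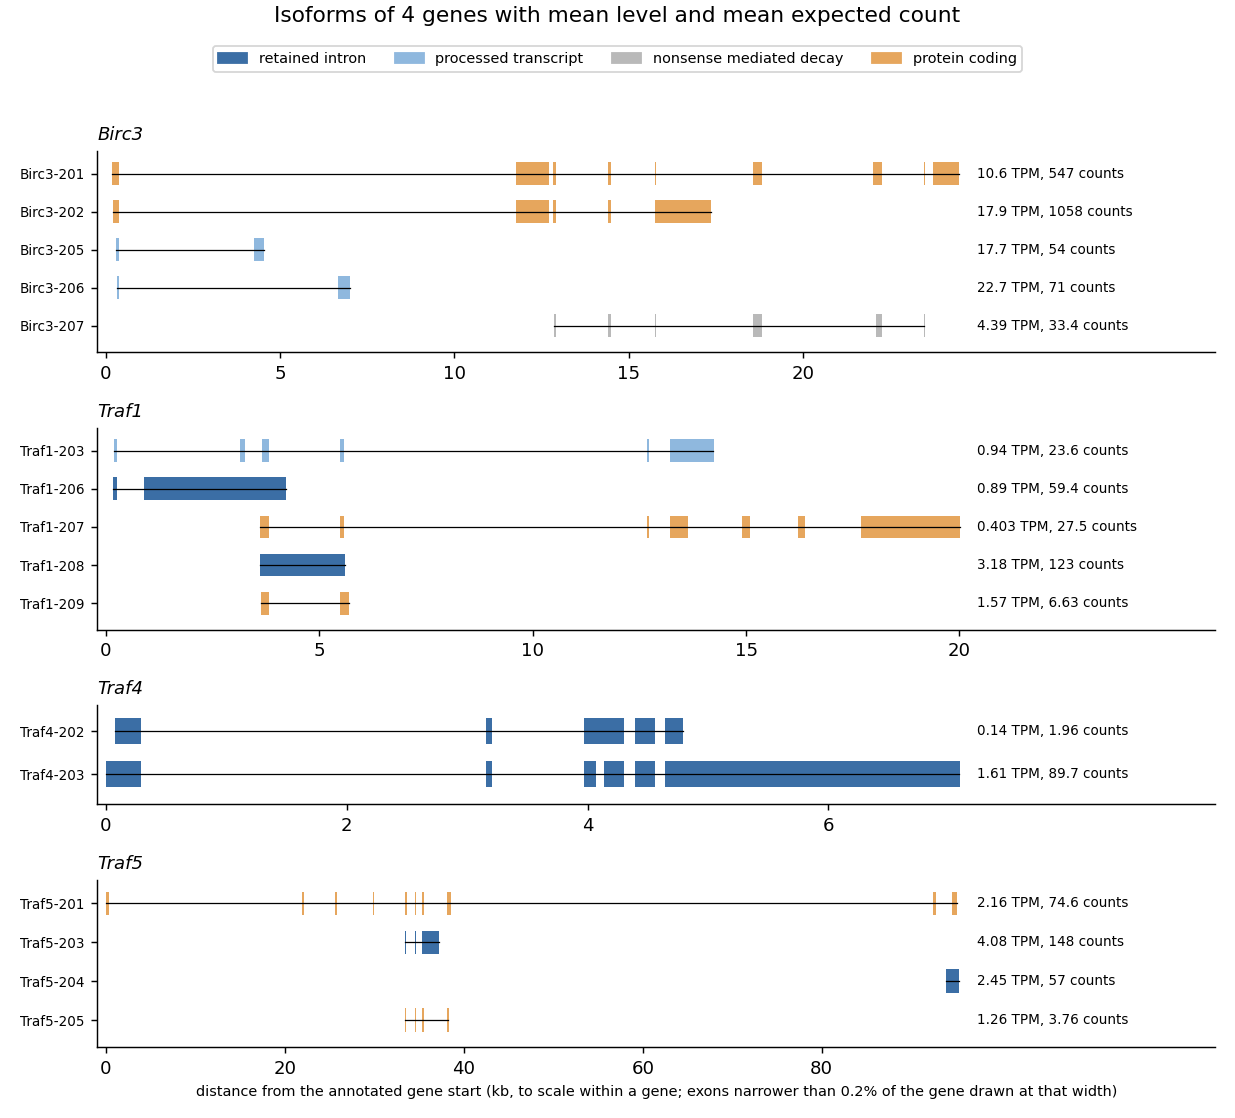
Exons (boxes) of the leading isoforms of Birc3, Traf1, Traf4 and Traf5 by distance in kb from the gene start, coloured by annotated type, with the mean TPM and mean expected count of each at the right. The short Birc3-205 and Birc3-206 at the 5′ end reach 17.7 and 22.7 TPM on 54.0 and 71.0 counts, while Birc3-202 reaches 17.9 TPM on 1058 counts.

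Ordered by mean gene TPM, the genes ran Birc3, Traf7, Xiap, Birc2, Traf5, Traf1, Traf6, Traf3, Traf2 and Traf4. Of the 9 neighbouring pairs, 4 differed by more than the spread of their log2 ratio over libraries, with the same sign in each. These were Traf7 over Xiap (log2 ratio 1.26 ± 0.21, SD, n = 3), Xiap over Birc2 (0.87 ± 0.33), Traf6 over Traf3 (0.46 ± 0.30) and Traf2 over Traf4 (1.72 ± 0.34). Birc3 and Traf7, Birc2 and Traf5, Traf5 and Traf1, Traf1 and Traf6, and Traf3 and Traf2 did not differ beyond their spread. In the second set of tables, 5 of 9 pairs did, Traf5 came after Birc3 and Traf7, and Birc3 over Traf7 was among the pairs that differed (1.60 ± 0.70). Ordered by coding isoforms in the first set, Birc3 came first at 29.1 TPM, and Traf7, Xiap and Birc2 were close at 11.2, 11.0 and 10.3 TPM. Traf1 had 2.70 TPM there, and only Traf4, at 0, ranked below it. In the second set Traf1 had 5.41 TPM and ranked above Traf6 and Traf2. Of that mean, 3.19 TPM came from the short Traf1-209, on a mean of 17.5 estimated counts.

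The share of a gene's TPM in noncoding isoforms (retained introns and processed transcripts) had a median over the 10 genes of 55.9% ± 2.65, against 48.1% ± 1.58 over 7454 coding genes that have such isoforms (SD over 3 libraries). By expected counts the medians were 34.1% and 26.2%. The shares of single genes ran over nearly the whole scale. Traf4 had 100% by either measure, Traf1 had 65.1% ± 10.5 of TPM and 74.4% of counts, and Traf5 had 59.6% of TPM and 68.3% of counts. In Birc3 the share was 54.3% of TPM and 6.85% of counts, in Traf6 57.8% and 21.6%, and in Xiap 53.7% and 21.7%. It was 72.3% and 45.3% in Traf7, 39.7% and 48.6% in Traf2, and 22.1% and 8.89% in Birc2. Traf3 was lowest in the first set, with 8.01% of TPM and 2.58% of counts. In the second set it had 27.3% of TPM and 16.0% of counts, and by counts Birc2 was lower there, at 15.0%.

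**Figure D5:**
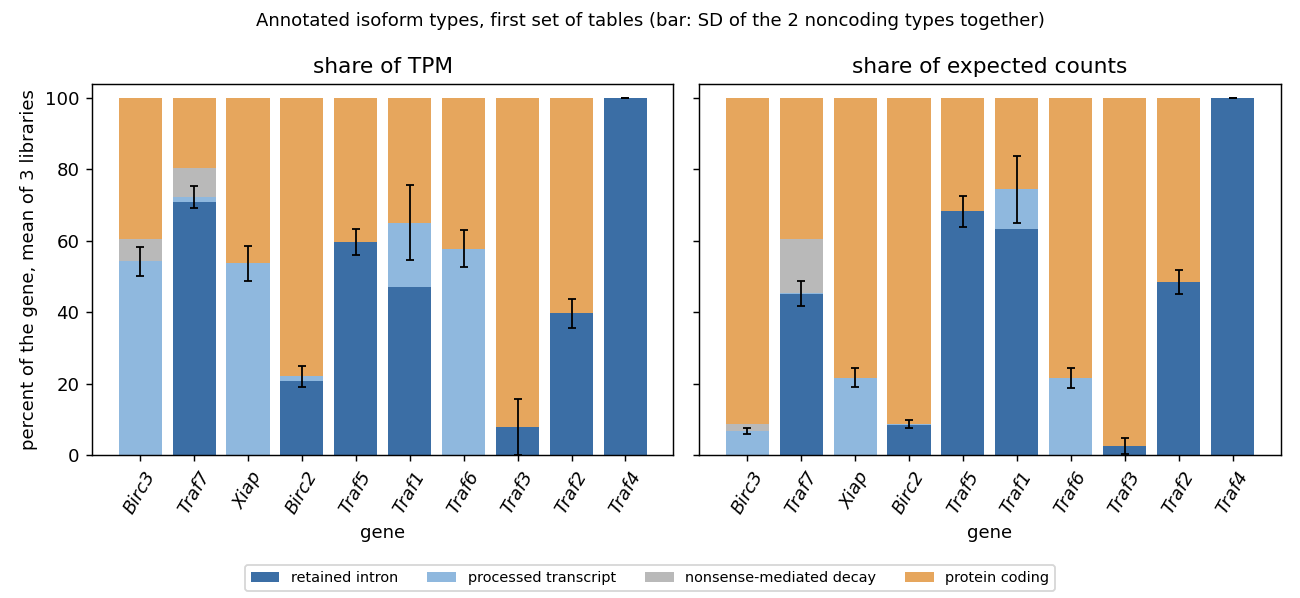
Mean percent of each gene's TPM (left) and expected counts (right) in 4 annotated isoform types, with the SD over 3 libraries of the retained intron and processed transcript types together. Traf4 is retained intron throughout, and Birc3 changes most between the panels, with 54.3% of TPM and 6.85% of counts in the noncoding types.

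Partners of the 10 genes were measured from 8 lists of 75 genes in all, of which 60, or 80.0%, reached 1 TPM in every library. The share over all protein-coding genes was 40.7%. Of the receptors that bind TRAFs 7 of 14 did so, and 10 of 14 in the second set of tables. In the first set they were led by the TNF receptor Tnfrsf1b at 23.2 ± 5.28 TPM, while Tnfrsf9 and Tnfrsf17 were listed at 0. On the route below TLR4 and the IL-1 receptor, 10 of 11 did so, led by the kinase gene Irak2 at 33.2 ± 4.26 TPM and with the receptor gene Il1r1 lowest at 0.0933 TPM. Of the kinases and ligases recruited with TRAFs, 16 of 17 did so, with Tbk1 highest at 82.1 ± 14.8 TPM and the death adaptor Fadd lowest at 0.460 TPM. All 8 deubiquitinases and other brakes did so, from Spata2 at 7.80 TPM to Tnfaip3, the ubiquitin-editing enzyme known as A20, at the top of all 8 lists. Of genes that interact with TRAFs or carry a TRAF domain 6 of 8 did so, and 7 of 8 in the second set. That list was led by Trafd1 at 138 ± 35.6 TPM, and the metalloprotease gene Mep1a was listed at 0 (SD, n = 3 for each).

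Of the 60 partner genes, 5 were at least 2-fold higher in replicate 1 than in replicate 2 in coding-rescaled TPM, or 8.33%, beside the 2.66% of coding genes given above. They were singled out after their values were seen. The receptor gene Cd40 was 6.07-fold higher, the IAP antagonist Xaf1 2.60-fold, the TRAF-binding adaptor Tank 2.44-fold, Tnfaip3 2.42-fold, and the caspase-8 regulator Cflar 2.07-fold. In replicates 1, 2 and 3 Tnfaip3 had 263, 124 and 252 TPM and Cflar had 103, 56.8 and 119 TPM. These 5 genes and Traf1 and Birc3 share their libraries, so the 7 ratios are not separate observations.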

How the data were processed

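The 3 libraries of chromatin-fraction RNA form 1 group. Per the text listing deposited with each of them, the authors used assembly mm10 with annotation M21 and did not pool replicates. The deposited gene and transcript tables (the first set) hold expected counts, TPM scaled over all entries of a file, a posterior mean TPM, and a signal column pair, the bounds of a credibility interval of TPM. The second set of deposited transcript tables holds estimated counts and TPM, made directly from the reads. Tool names, aligner and strand setting were not given in the sources used here. Both sets cover annotated exons, so unspliced RNA appears through retained-intron isoforms, and a short isoform weighs more in TPM than in counts.

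Genes were matched to GENCODE M21, which gave symbols, isoform types and 1-based coordinates. Coding-rescaled TPM sums to 1000000 over protein-coding genes. Stretches of 31 bases of each isoform were compared with all annotated transcripts on both strands. Replicates differed far beyond counting noise (chi-square per degree of freedom 40.9 to 107), and none were identical. With 1 group no test was run: the smallest p of an exact sign-flip test with 3 values is 0.25. Neighbours in the order were said to differ where the mean log2 ratio exceeded its SD and kept its sign.

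The members and the lists were chosen with earlier results of these data known. The text names all 10 members, the highest and lowest gene of each list, and isoforms holding at least 10% of a member's TPM in either set, apart from items that are not reported here. Traf7-215, Spi1, Lyz2, Pecam1, Cd8a, Zbtb46, Siglech and Col1a1 were named after their values were seen. Alternatives covered the second set, coding-rescaled TPM, posterior means, limits of 0.1 and 5 TPM, a pseudocount of 1, nonsense-mediated decay isoforms, edgeR 4.0.16 TMM factors, DESeq2 1.42.0 size factors (expected counts rounded, R 4.3.3), no filter, and each replicate left out. Shares and ratios of expected counts were added after the data were seen. Tables were handled with pandas 2.3.3 and numpy 2.4.6 in Python 3.11.15, intervals with scipy 1.17.1 and figures with matplotlib 3.10.9, and the computations were tested on simulated data.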

Additional observations from a re-analysis of the deposited data

How the results depend on the processing

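No paired analysis was possible because there is 1 group. All 10 genes stayed at or above 1 TPM in every library with the second set of tables, coding-rescaled TPM, posterior mean TPM, a limit of 0.1 TPM and each replicate left out, and 6 did so at 5 TPM. The median level of the 10 genes was 10.2 TPM. It was 15.7 in the second set of tables, 51.9 when rescaled over coding genes, and 8.31 to 11.6 with 1 replicate left out. The log2 ratio of Birc3 over Birc2 was 3.43 in the second set and 1.22 in expected counts, against 2.48 in TPM, and 2.21 to 2.65 with 1 replicate left out. The log2 ratio of Traf1 over Traf2 was -0.50 in expected counts and 0.11 in the second set, against 0.55 in TPM, and 0.16 to 0.90 with 1 replicate left out, within its spread except without replicate 2 (0.90 ± 0.60) and in posterior mean TPM (0.74 ± 0.62). The median noncoding share was 65.6% in the second set and 34.1% by expected counts, against 55.9% by TPM, and 54.6% to 57.3% with 1 replicate left out. The median coefficient of variation over libraries was 34.6% in the 10 genes, beside 30.6% in coding genes. It was 15.9% beside 15.5% in coding-rescaled TPM, 14.8% beside 14.4% with TMM factors, 14.4% beside 14.6% with DESeq2 size factors, and 14.9% to 37.9% with 1 replicate left out, lowest without replicate 3. The cause of these shifts was not tested, apart from length scaling, which is what separates TPM from counts. No ratio of Birc3 over Birc2 changed sign in these alternatives. In all, 31 values moved by less than the limit set for them and 12 moved by more. The limit was the SD between libraries, the SD over the 10 genes for the coefficient of variation, and 1.5 times for counts of genes. Depth limits the coding isoform of Traf4, at 0 counts in every library, and isoforms of a few counts, such as Traf1-209 with 14, 3 and 2.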

Other observations

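Other members of the inhibitor of apoptosis family and the genes that act against or below them were measured on the same chromatin. Of 7 other family members 4 reached 1 TPM in every library, and 5 did so in the second set of tables. Among all protein-coding genes 40.7% reached that limit. The family members were led by Birc6, a giant ubiquitin-conjugating enzyme, at 105 ± 16.7 TPM, while Birc7 was listed at 0. Naip5 and Naip6, sensors of bacterial flagellin in mouse, had 33.6 ± 7.24 and 32.6 ± 7.89 TPM, and the split between these near-identical genes is uncertain. Birc5, a mitotic member, had 0.730 ± 0.340 TPM. Of 4 IAP antagonists 3 reached the limit, from Htra2 at 29.4 ± 8.76 TPM through Diablo at 13.1 ± 4.02 TPM, with Sept4 lowest at 0.350 TPM. All 6 genes of the list of caspases and Cflar reached it, and Cflar, at 92.9 ± 32.2 TPM, stood far above Casp8 at 19.0 ± 4.50 TPM (SD, n = 3 for each). Naip5, Naip6, Birc5, Diablo and Casp8 were picked for their roles after the values were seen.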
